A study of Mus musculus with 6 samples.

Results

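The growth hormone and IGF axis was followed in neonatal mouse liver through 10 genes, *Igf1*, *Igf2*, *Igfals*, *Igfbp1*, *Igfbp2*, *Igfbp3*, *Igfbp4*, *Ghr*, *Socs2* and *Stat5b*. Members were all probes of the liver table that carry 1 of these symbols, 10 genes of 18138 symbols and 14 probes of 25697, and each gene had at least 1 probe. The rule reads symbols and no measured value, but the genes were listed with earlier results of these data known. The study asked what the human Y chromosome gene *SRY* does when it is switched on throughout the mouse body, and the liver was hybridised to MouseRef-8 BeadChips, single-colour Illumina arrays. All 6 livers came from male FVB/N pups (labelled FVB) at postnatal day 6. The 3 hSRY-ON pups carried a single-copy human *SRY* transgene behind the broadly active CAG promoter, opened in the early embryo by Cre protein left in the egg by a *Ddx4*-Cre mother, and did not carry the Cre gene themselves. The study's methods define hSRY-OFF as carrying the transgene in its closed form, in which the same promoter stands before the red fluorescent protein DsRed2. The study elsewhere uses littermates without the transgene as controls, and the labels of the 3 hSRY-OFF pups do not give their genotype further. Per the study the hSRY-ON pups grew slowly and took little milk, and the effects of the transgene and of poor feeding cannot be told apart in this design.

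Growth hormone from the pituitary binds its receptor on hepatocytes, and the receptor's partner kinase JAK2 activates the transcription factors STAT5A and STAT5B. These switch on the gene for IGF1, the main circulating growth factor of postnatal life, and that for IGFALS, the acid-labile subunit, which holds IGF1 and IGFBP3 in a long-lived complex in blood. IGF2, the fetal growth factor, is made in large amounts by the fetal and neonatal rodent liver, and IGFBP1 is a short-lived binding protein whose gene is induced by fasting and held down by insulin.

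Short stretches of promoter are shown for *Igfals* and *Igfbp1*, the genes with the lowest and the highest difference among the members, because each held a match to a motif of a factor known in this axis. The letters searched were TTCNNNGAA, the core bound by STAT5, which reads the same on both strands, and CAAAACA, a form of the FoxO-bound insulin response element, on both strands. The 2 motifs share no position in these windows. Sequences are those of RefSeq on GRCm38.p6, the reference strain and not FVB/N, over the 250 bases before each annotated start, and capitals mark the match. TTCNNNGAA stands in 7.02% of 32851 such mouse promoters and CAAAACA in 5.56%.
*Igfals*, promoter of the first start, chr17:24877594-24877733, plus strand: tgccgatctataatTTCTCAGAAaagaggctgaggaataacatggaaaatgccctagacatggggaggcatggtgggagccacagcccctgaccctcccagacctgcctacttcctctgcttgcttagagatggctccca
*Igfals*, site before the second start, chr17:24878163-24878192, plus strand: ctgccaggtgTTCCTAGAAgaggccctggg
*Igfbp1*, promoter, chr11:7197647-7197786, plus strand: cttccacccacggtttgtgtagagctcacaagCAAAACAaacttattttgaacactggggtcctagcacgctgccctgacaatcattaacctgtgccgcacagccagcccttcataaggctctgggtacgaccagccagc
The *Igfals* matches lie 236 to 228 bases before the first start and 58 to 50 bases before the second, and the *Igfbp1* match lies 108 to 102 bases before its start. *Igfals* had 3 annotated starts, and the window before the third held neither motif. Neither motif was matched in the windows of *Igf1*, *Igf2*, *Igfbp2*, *Igfbp3*, *Igfbp4*, *Ghr* or *Stat5b*. The *Socs2* promoter was not analysed here. A match is a string of letters and no measure of binding, and the absence of one in these windows says nothing about more distant sites.

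Intensities below are given as deposited, on the linear scale of the scanner, and tests were made on log2 normalized values. A probe was counted as detected on an array at a detection p-value under 0.01 and was tested if detected on at least 3 of the 6 arrays. A probe was called at an adjusted p under 0.05 by limma with Benjamini-Hochberg adjustment over all 10734 tested probes. Between 10318 and 10762 probes were detected per array, and log2 values of arrays of 1 group correlated at 0.987 to 0.992 for hSRY-OFF and at 0.965 to 0.982 for hSRY-ON. The median SD over the tested probes was 0.14 among hSRY-OFF arrays and 0.21 among hSRY-ON arrays. Each array stands for 1 pup per the study, and 3 arrays per group limit the precision.

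Of the 10 genes, 9 had a tested probe, 13 probes in all. Transcripts of *Igf1*, *Igfals*, *Ghr* and *Igfbp4* were lower in hSRY-ON liver on all 7 of their probes, by between 1.52-fold and 10.5-fold. *Igfbp1* was 6.04-fold higher. *Igf2*, *Igfbp2*, *Igfbp3* and *Socs2*, with 5 probes, were not called. Calls were common on these arrays, since 15.8% of all tested probes were called higher and 17.3% lower. The groups did not overlap at the same 8 member probes, 1 higher and 7 lower, where 25.4% of all tested probes lay wholly higher and 24.6% wholly lower. The median difference, hSRY-ON minus hSRY-OFF, was -0.84 on the log2 scale over the member probes and 0.017 over all tested probes. In whole liver, fewer cells of a type and less RNA per cell cannot be told apart.

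**Figure D1:**
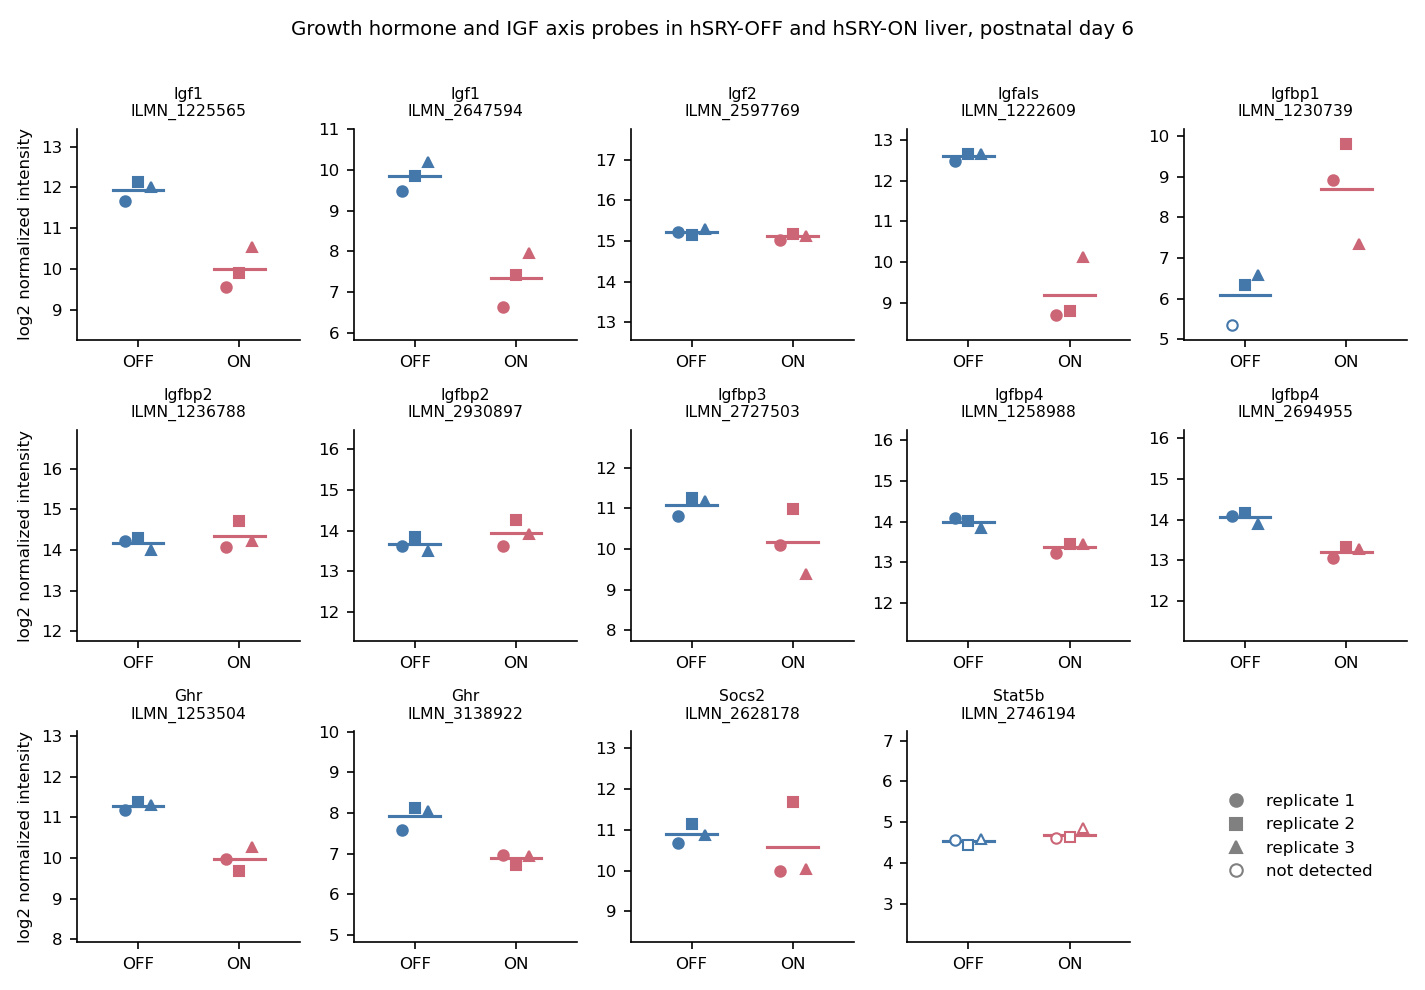
Log2 normalized intensity of each of the 14 member probes on the 3 hSRY-OFF (blue) and 3 hSRY-ON (red) arrays, with a line at each group mean, marker shapes for replicate numbers and open markers for arrays without detection. Every panel spans the same range of log2 units, and *Igf1*, *Igfals*, *Ghr* and *Igfbp4* lie lower on every hSRY-ON array, *Igfbp1* higher.

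*Igf1* codes for the growth factor itself. Its brighter probe, ILMN_1225565, read 3780, 5229 and 3822 in hSRY-OFF replicates 1 to 3 and 964, 1046 and 1414 in hSRY-ON replicates 1 to 3. Every hSRY-ON array was below every hSRY-OFF array. The normalized level was 3.88-fold lower in hSRY-ON liver (95% confidence interval 2.55 to 5.89), a log2 difference of -1.95 ± 0.26 (SE, n = 3 per group; limma, adjusted p = 0.00185). The second *Igf1* probe, ILMN_2647594, read 918, 1175 and 1096 in hSRY-OFF and 243, 288 and 336 in hSRY-ON liver, again with no overlap. It was 5.69-fold lower (interval 3.31 to 9.81), with a log2 difference of -2.51 ± 0.33 (limma, adjusted p = 0.0019). The 2 probes thus differed by 0.55 log2 units in the size of the fall and not in its direction.

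*Igf2*, the fetal ligand, stood among the brightest probes of the array, with only 6 to 21 probes brighter on any array. Its probe ILMN_2597769 read 39346, 36617 and 37295 in hSRY-OFF and 35248, 39391 and 33219 in hSRY-ON liver. The groups overlapped, and the log2 difference was -0.11 ± 0.11 (95% interval -0.38 to 0.16; limma, adjusted p = 0.487). The highest intensity on the arrays was 44365 to 47161, so this probe lay near the top of the scale, where differences may be compressed.

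*Igfals* codes for the acid-labile subunit, made by hepatocytes under growth hormone control. Its single probe, ILMN_1222609, read 6453, 7717 and 5973 in hSRY-OFF and 596, 557 and 1107 in hSRY-ON liver. The highest hSRY-ON reading was well below the lowest hSRY-OFF reading. The level was 10.5-fold lower (interval 5.90 to 18.8), a log2 difference of -3.40 ± 0.36 (limma, adjusted p = 0.000758). Of the 10734 tested probes, 20 had a more negative difference. The matches to TTCNNNGAA printed above are those of this gene, and *Igf1*, which was lower too, had none in its window.

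**Figure D2:**
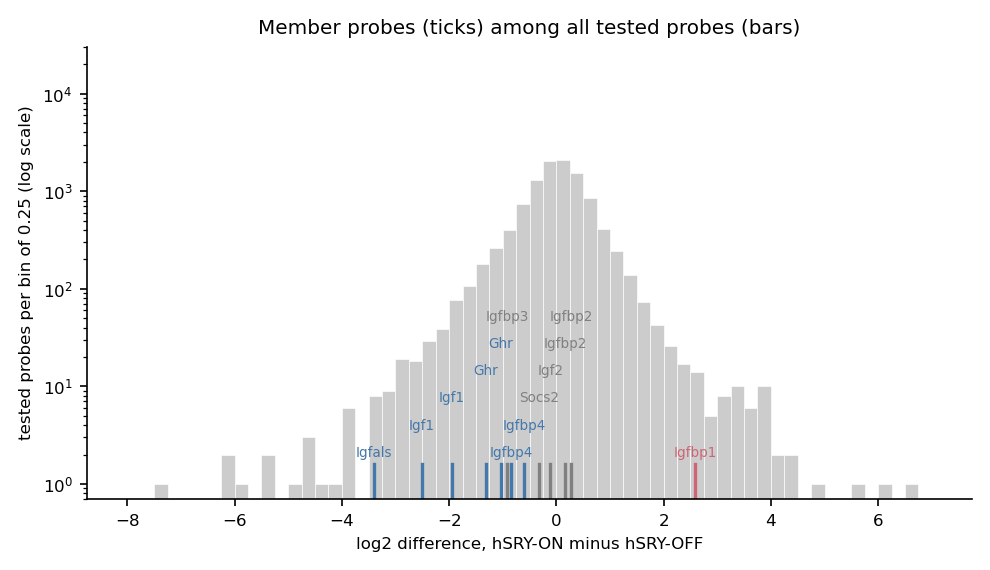
Number of tested probes per bin of 0.25 log2 units of the difference, hSRY-ON minus hSRY-OFF (bars, log axis), with the 13 tested member probes as ticks coloured by call (blue lower, red higher, grey not called). *Igfals* at -3.40 and *Igfbp1* at 2.59 lie in the tails. Uncalled *Igfbp3* at -0.92 lies farther from 0 than both called *Igfbp4* probes, and the other uncalled members lie among the bulk of probes.

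*Ghr* codes for the growth hormone receptor and, as a shorter product in the mouse, for the circulating binding protein. Its brighter probe, ILMN_1253504, read 2687, 3139 and 2321 in hSRY-OFF and 1245, 925 and 1190 in hSRY-ON liver, with no overlap. The level was 2.48-fold lower (interval 1.89 to 3.26), a log2 difference of -1.31 ± 0.17 (limma, adjusted p = 0.0016). The dimmer probe, ILMN_3138922, read 338, 442 and 336 against 271, 226 and 228, and was 2.05-fold lower (interval 1.54 to 2.72; log2 difference -1.03 ± 0.17; limma, adjusted p = 0.0047). Both *Ghr* probes were thus called lower, with 0.28 log2 units between their differences. Without background correction the dimmer probe, Ghr ILMN_3138922, differed by -0.60, and was still called.

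*Stat5b*, the transcription factor through which the receptor acts on *Igf1*, was detected on none of the 6 arrays. Its probe ILMN_2746194 read 130 to 138 in hSRY-OFF and 137 to 143 in hSRY-ON liver, which is the range of the negative controls, so it gave no level for either group. *Stat5a*, the neighbouring gene on chromosome 11 and a near copy in function, was measured. Its probe ILMN_2976191 had log2 normalized values of 8.14, 8.22 and 8.05 in hSRY-OFF and 7.57, 7.63 and 7.51 in hSRY-ON liver. It was called lower (log2 difference -0.56 ± 0.11; limma, adjusted p = 0.00942), and its second probe was not (-0.41 ± 0.22; adjusted p = 0.185).

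*Socs2* codes for the suppressor of cytokine signalling that growth hormone itself induces and that damps the receptor. Its probe ILMN_2628178 read 1945, 2696 and 1757 in hSRY-OFF and 1258, 3233 and 1054 in hSRY-ON liver. Replicates 1 and 3 of hSRY-ON lay below all hSRY-OFF arrays and replicate 2 above all of them. The log2 difference was -0.32 ± 0.44 (interval -1.34 to 0.70; limma, adjusted p = 0.599), an interval that holds a fall as large as that of the dimmer *Ghr* probe. For Socs2 ILMN_2628178 the difference was -0.89 and called without hSRY-ON replicate 2 (adjusted p = 0.0111), -0.039 without replicate 1 (adjusted p = 0.958) and -0.062 without replicate 3 (adjusted p = 0.926).

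*Igfbp1* was the only member called higher in hSRY-ON liver. Its probe ILMN_1230739 read 172, 220 and 199 in hSRY-OFF and 672, 991 and 261 in hSRY-ON liver, and it was not detected on hSRY-OFF replicate 1. The groups did not overlap, but hSRY-ON replicate 3 lay much nearer to the hSRY-OFF arrays than the other 2 did. The level was 6.04-fold higher (interval 2.25 to 16.2), a log2 difference of 2.59 ± 0.61 (limma, adjusted p = 0.0162). With the undetected array set at the lowest detected signal the difference was 2.45, and for Igfbp1 ILMN_1230739 without background correction it was 1.52, still called. The call was lost without hSRY-OFF replicate 1 (2.22, adjusted p = 0.0639) and without hSRY-ON replicate 1 (2.48, adjusted p = 0.0544).

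*Igfbp3*, the main carrier of IGF1 in serum and in the mouse the direct neighbour of *Igfbp1* on chromosome 11, was not called. Its probe ILMN_2727503 read 2132, 2911 and 2142 in hSRY-OFF and 1353, 2084 and 710 in hSRY-ON liver. On the normalized scale hSRY-ON replicate 2 lay within the hSRY-OFF range, and replicate 3, the one nearest to hSRY-OFF for *Igfbp1*, lay farthest from it. The log2 difference was -0.92 ± 0.37 (interval -1.79 to -0.05), with an unadjusted p of 0.0409 and an adjusted p of 0.0954 (limma). For Igfbp3 ILMN_2727503 it was -1.33 and called without hSRY-ON replicate 2 (adjusted p = 0.010), and -0.54 and not called without hSRY-ON replicate 3 (adjusted p = 0.172).

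*Igfbp2* and *Igfbp4* code for carriers that do not need the acid-labile subunit. *Igfbp4* was lower on both probes. ILMN_1258988 read 18190, 17832 and 13919 in hSRY-OFF and 10113, 11200 and 9696 in hSRY-ON liver, 1.52-fold lower (log2 difference -0.60 ± 0.13; limma, adjusted p = 0.011), a call lost without hSRY-OFF replicate 1 (-0.56, adjusted p = 0.0533). ILMN_2694955 was 1.79-fold lower (-0.84 ± 0.14; limma, adjusted p = 0.00408), and neither probe's groups overlapped.

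For *Igfbp2* the groups overlapped. ILMN_1236788 read 19291, 21507 and 15549 in hSRY-OFF and 18229, 28760 and 17227 in hSRY-ON liver, and ILMN_2930897 read 13781, 16094 and 10940 against 13086, 20560 and 13522. On both, hSRY-ON replicate 2 was the highest of the 6 arrays. The log2 differences were 0.16 ± 0.19 (interval -0.28 to 0.60, limma adjusted p = 0.541) and 0.28 ± 0.19 (interval -0.16 to 0.71, adjusted p = 0.291), intervals that leave out a fall of the size seen at *Igfbp4*. Without hSRY-ON replicate 2 the first of these was -0.025.

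**Figure D3:**
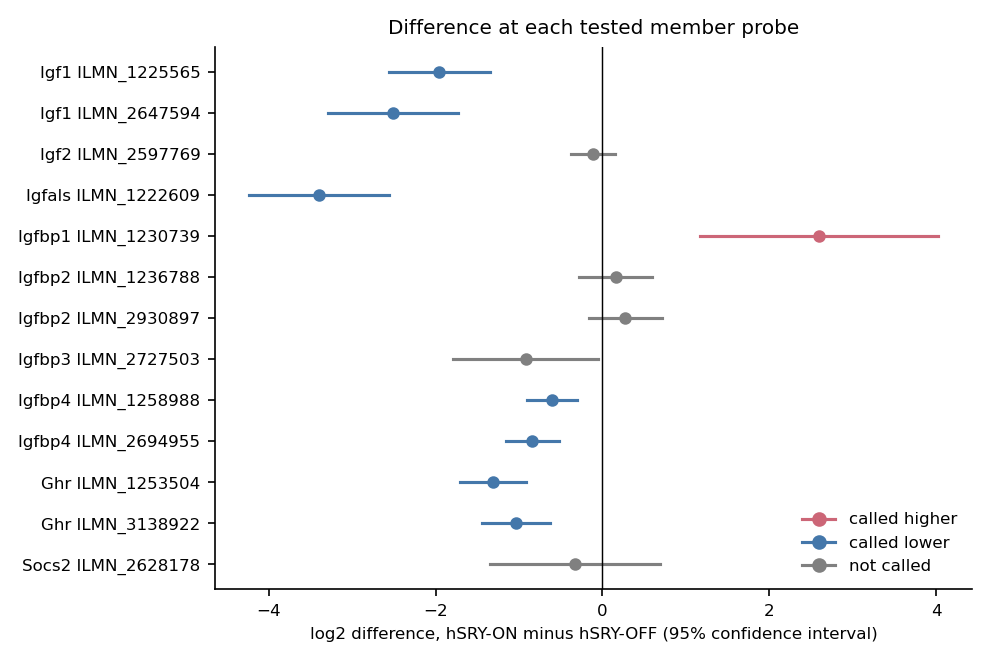
Log2 difference, hSRY-ON minus hSRY-OFF, with its 95% confidence interval at each of the 13 tested member probes, coloured by call. The 7 lower calls run from -3.40 for *Igfals* to -0.60 for *Igfbp4*, *Igfbp1* stands alone at 2.59 with the widest interval, and the interval of *Igfbp3* ends just below 0 although it was not called after adjustment.

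The 3 hSRY-ON arrays were not equally far from hSRY-OFF. At 6 of the 8 called member probes hSRY-ON replicate 3 was the nearest to the hSRY-OFF mean. It was nearest too at 18 of 30 called probes tallied for further genes, so this was not particular to the members. At *Igfbp4* ILMN_1258988 the lead was slight, -0.529 against -0.539 for replicate 2. The log2 distance of replicate 3 from that mean was -1.41 at the brighter *Igf1* probe, against -2.39 and -2.06 for replicates 1 and 2. At *Igfals* the distances were -3.91, -3.80 and -2.48, and at *Igfbp1* 2.83, 3.71 and 1.25, for replicates 1, 2 and 3. Replicate 3 also correlated least with the other hSRY-ON arrays over all tested probes. *Igfbp3* ran the other way, at -0.97, -0.09 and -1.68.

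**Figure D4:**
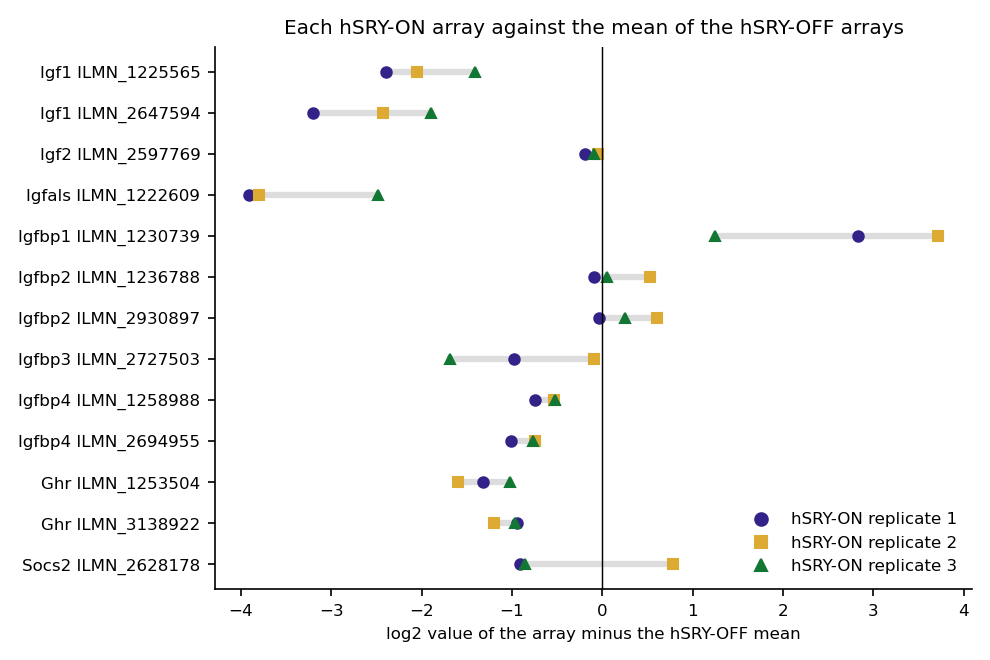
Log2 normalized value of each hSRY-ON array minus the mean of the 3 hSRY-OFF arrays at the 13 tested member probes. For *Igf1*, *Igfals* and *Igfbp1* replicate 3 lies nearest to 0, for *Igfbp3* it lies farthest, and for *Socs2* replicate 2 lies on the other side of 0 from replicates 1 and 3.

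Around the members, lists of 88 further genes of the axis were examined, of which 82 were in the table and 53 were tested with 78 probes. Of these probes 21 were called higher, 17 lower and 40 neither, and the median difference was 0.20. These counts, and those of the lists and cell markers below, are to be read beside the shares over all tested probes, 15.8% higher and 17.3% lower. In the list of growth hormone receptor signalling, 6 of 21 further probes were higher and 4 lower. *Prlr*, the prolactin receptor and closest relative of *Ghr*, fell by 2.19 ± 0.31 on the log2 scale (limma, adjusted p = 0.00243).

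*Cish* and *Socs3*, relatives of *Socs2*, were called higher, while no probe of the inhibitory phosphatase gene *Ptpn6* (-0.37 and -0.06) or of its docking receptor *Sirpa* (-0.38 and -0.37) was called. *Cish*, a STAT5 target that damps cytokine receptors, had log2 values of 9.95, 9.65 and 9.96 in hSRY-OFF and 11.28, 11.30 and 10.47 in hSRY-ON liver. It rose by 1.16 ± 0.24 (limma, adjusted p = 0.0102), while *Igf1* and *Igfals*, also STAT5 targets, fell. *Socs3*, induced by STAT3 and inflammatory cytokines, was 7.01, 6.46 and 7.01 against 7.92, 8.28 and 8.33, a rise of 1.35 ± 0.19 (adjusted p = 0.00253). *Jak2*, the receptor's kinase, was higher on 1 of its 2 probes (0.51 ± 0.13; adjusted p = 0.0229), a call that 4 of 18 other settings lost. *Ptpn11*, the phosphatase SHP2, named after its values were seen, was higher on all 3 probes by 0.45 to 0.50, calls that 6, 1 and 4 of 18 settings lost. No probe of *Socs1*, *Ptpn1*, *Ptpn2* or *Lepr* was detected.

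Genes known to respond to growth hormone in liver moved in both directions. The list was not split into genes that the hormone raises and genes that it lowers. Of 15 further probes 4 were higher and 6 lower, with a median of -0.12. *Keg1*, of the glycine N-acyltransferase family, had log2 values of 11.65, 11.56 and 11.62 in hSRY-OFF and 7.12, 6.99 and 7.19 in hSRY-ON liver and fell by 4.51 ± 0.11 (limma, adjusted p = 7.29e-06). *Cux2*, a homeobox factor, was lower by a difference of -1.75 ± 0.44 (adjusted p = 0.0212), a call that 4 of 18 settings lost. *Hsd3b5*, a steroid dehydrogenase of male liver, was not detected on any hSRY-ON array and after background correction was at least 1.74-fold lower (adjusted p = 0.00127). Without that correction the log2 difference of Hsd3b5 ILMN_1234449 was -0.54, a smaller fold, and was still called.

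The higher probes of the same list were those of *Serpina3k*, *Selenbp2*, *Bcl6* and *Cish*. *Serpina3k*, a serine protease inhibitor from a cluster of near copies that a probe may share, was 10.95, 11.64 and 11.20 in hSRY-OFF and 13.36, 13.83 and 12.66 in hSRY-ON liver (difference 2.02 ± 0.31; limma, adjusted p = 0.00334). *Selenbp2*, a selenium-binding protein gene, differed by 2.01 ± 0.29 (adjusted p = 0.00281). *Bcl6*, a repressor that shares sites with STAT5 in liver, differed by 1.39 ± 0.21 (adjusted p = 0.00339). Of the list, 8 genes were detected on no array, among them *Mup1*, *Mup2*, *Mup4* and *Mup5*, urinary protein genes of a large family of near copies.

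**Figure D5:**
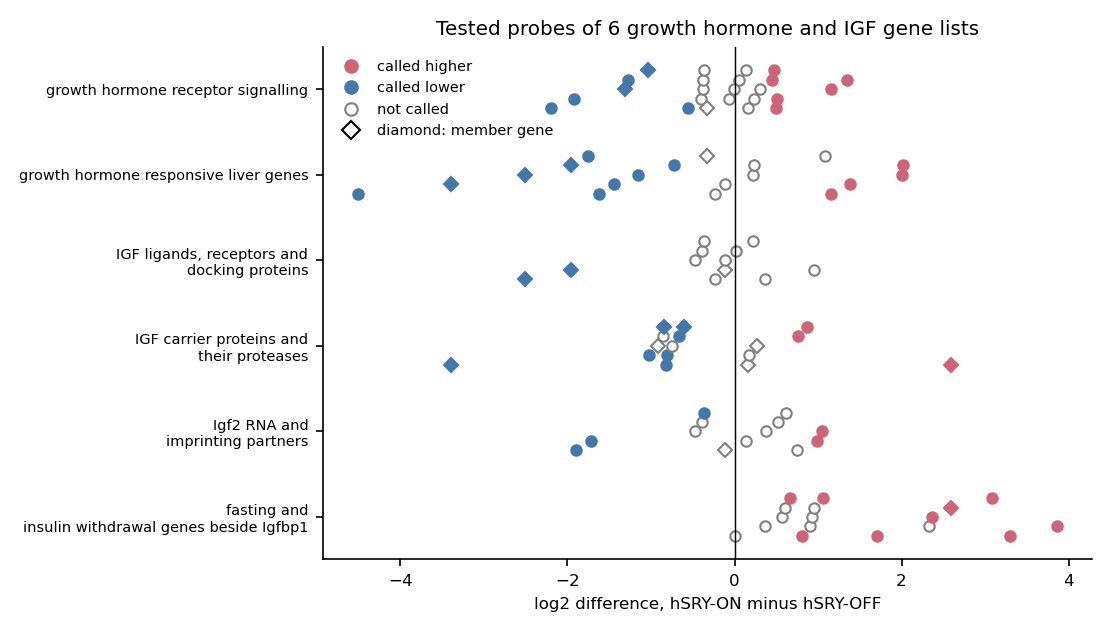
Log2 difference, hSRY-ON minus hSRY-OFF, of every tested probe in 6 lists of growth hormone and IGF genes, coloured by call, with diamonds for the member genes. Called probes lie on both sides of 0 in 4 lists, the list of ligands, receptors and docking proteins has no called probe outside *Igf1*, and the list of fasting genes has called probes above 0 and none below.

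Beyond *Igf1*, none of 9 further probes for IGF ligands, receptors and docking proteins was called. *Igf1r*, the receptor for both ligands, differed by 0.37 ± 0.13 (limma, adjusted p = 0.063). *Igf2r*, which clears IGF2, differed by -0.47 ± 0.20 and -0.39 ± 0.16 on its 2 probes (adjusted p = 0.109 and 0.101). These receptor genes and *Irs2*, the docking protein, which stood at 0.96 ± 0.50 (adjusted p = 0.18) and ranged from 0.50 without hSRY-ON replicate 2 to 1.58, then called, without hSRY-ON replicate 3, were named after their values were seen.

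Among carriers and the proteases that cut them, 2 of 9 further probes were higher and 4 lower. *Igfbp7*, a related protein of vessel walls, rose by 0.76 ± 0.17 (limma, adjusted p = 0.0122). *Adamts1*, a metalloprotease, rose by 0.87 ± 0.11 (adjusted p = 0.00175). *Plg*, the hepatocyte gene for plasminogen, was lower on all 3 probes, at most by a difference of -0.82 ± 0.17 (adjusted p = 0.00953). *Htra1*, a protease that cuts IGF carriers, was not detected on any hSRY-ON array with ILMN_2966104 and after background correction was at least 1.42-fold lower (adjusted p = 0.00309). Without that correction the log2 difference of Htra1 ILMN_2966104 was -0.32, a smaller fold, and its second probe was not called (-0.74, adjusted p = 0.0576). *Igfbp5*, the neighbour of *Igfbp2*, differed by 0.18 (adjusted p = 0.609).

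Of 12 further probes for *Igf2* RNA-binding proteins and imprinting partners, 2 were called higher and 3 lower, where 15.8% and 17.3% of all tested probes were. *Cdkn1c*, an imprinted inhibitor of cell division, had log2 values of 13.41, 13.23 and 13.76 in hSRY-OFF and 11.80, 11.78 and 11.66 in hSRY-ON liver and fell by 1.72 ± 0.16 (limma, adjusted p = 0.000438). *Dlk1*, an imprinted surface protein of fetal hepatoblasts, fell by 1.89 ± 0.24 (adjusted p = 0.00154). *H19*, the non-coding RNA that shares its enhancers with *Igf2*, fell by 0.37 ± 0.12 (adjusted p = 0.0465), a call that 8 of 18 other settings did not keep. *Igf2bp2*, an RNA-binding protein of *Igf2* messages, rose by 0.98 ± 0.14 (adjusted p = 0.00211). *Mest* was called on 1 of 3 probes (1.04 ± 0.30; adjusted p = 0.0346), and 7 of 18 settings lost that call.

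The list of fasting and insulin withdrawal genes, in which *Igfbp1* belongs, had 8 of 16 further probes higher, from 5 genes, and 0 lower, with a median difference of 0.94. Most of those 8 probes were of *Trib3*, *Asns* and *Atf4*, so the count does not stand for the list as a whole. *Pck1* and *Fgfr4* of this list were in the table but were detected on too few arrays to be tested. *Trib3*, a stress-induced inhibitor of AKT, had log2 values of 6.84, 6.41 and 6.30 in hSRY-OFF and 10.89, 9.94 and 10.30 in hSRY-ON liver at ILMN_1225528, a rise of 3.86 ± 0.26 (limma, adjusted p = 0.000154). The *Trib3* probes ILMN_1244279 and ILMN_1252762 were among the called probes too (3.08 and 3.30), though detected on 0 and 1 of the hSRY-OFF arrays. *Pdk4*, the kinase that spares glucose in fasting, was 9.03, 9.55 and 8.77 against 11.69, 12.20 and 10.54, a rise of 2.36 ± 0.41 (adjusted p = 0.00549). *Ppargc1a*, the coactivator of gluconeogenesis, was called at 1.71 ± 0.53 (adjusted p = 0.0449), but 10 of 18 settings lost the call.

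The other called genes were *Atf4* and *Asns*, a factor and a target of the amino acid response, at 0.66 for *Atf4* and 0.81 and 1.06 for *Asns*. The call of the *Asns* probe at 0.81 was lost in 6 of 18 settings and that of *Atf4* in 2. *G6pc*, the last enzyme of gluconeogenesis (0.36, limma adjusted p = 0.229), *Foxo1* (0.61, adjusted p = 0.0701) and *Fgf21*, a fasting hormone (0.57, adjusted p = 0.369), were not called. All were named after their values were seen.

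The probes whose pattern over the 6 arrays was most like that of the brighter *Igf1* probe, by the root mean square of the log2 differences after centring, belonged to *Ebpl* (0.17), *Pxmp2* (0.18), *Crybb3* (0.20), *Rdh9* (0.20) and *Itih1* (0.20). *Ebpl* differed by -2.17 and *Itih1*, a hepatocyte serum protein gene, by -1.63. The *Crybb3* probe had a mean of 5.31 in hSRY-ON liver, below the lowest detected signal of those arrays (5.62 to 5.77). Its likeness to *Igf1* thus rests in part on undetected signal.

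Levels of cell markers moved with these results in part, and their share in them was not tested. Of 16 tested hepatocyte marker probes 0 were called higher and 4 lower, *Tat* was detected on no array, and the summed normalized intensity was 362127 to 370454 in hSRY-OFF and 328414 to 354237 in hSRY-ON liver. The called markers were *Alb* (-1.11), *Serpina1a* (-1.11 and -0.91 on 2 probes) and *Ttr* (-0.46), and the median over the list was -0.14. Many of the other probes, such as those of *Trf* and *Apoa1*, lay near the top of the scale like *Igf2*, where differences may be compressed. Uncalled probes farther from the top did not share the fall. They were *Hnf4a* (-0.09), *Ahsg* ILMN_2993745 (-0.04) and *Cps1* (0.45 and 0.49). The *Alb* probe, ILMN_2651160, was by contrast the dimmest on the hepatocyte list, its log2 group means being 7.94 (hSRY-OFF) and 6.82 (hSRY-ON). Whether so dim a probe reports the level of albumin RNA was not tested, so its difference is that of the probe only. For Kupffer cells and macrophages 1 of 12 probes was higher and 4 lower, with sums of 13832 to 17217 against 10975 to 13611 and *Cd5l* not detected. Those of sinusoidal endothelial cells, which with Kupffer cells are the main source of *Igfbp3* in rodent liver, had 5 of 14 higher and 1 lower, with overlapping sums of 12296 to 15389 and 12555 to 15161 and *Kdr* not detected.

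Stellate cell and fibroblast markers had 5 of 14 probes higher and 3 lower, with sums of 14750 to 16702 against 23424 to 25309 and *Col1a2* and *Hand2* not detected, and 4 of the higher probes were those of *Acta2*, smooth muscle actin. *Des* was higher too (0.77), while *Ngfr* (-2.26), *Lrat* (-1.66, detected on no hSRY-ON array) and *Reln* (-0.66) were called lower. Bright probes weigh most in the sum, and *Acta2* ILMN_2693895 went from a log2 mean of 10.82 in hSRY-OFF to 13.27 in hSRY-ON liver. The higher sum thus does not stand for the list as a whole. Erythroid markers had 2 of 11 probes higher and 0 lower, with a median difference of 0.62 and sums of 65374 to 85255 against 82770 to 96658. A large part of each sum was the *Hba-a1* probe, at the top of the scale with a log2 value of 15.50 and an SD of 0 in both groups. That probe could show no difference, so the sums say little about the list. Biliary markers had 1 of 4 higher and 2 lower, with sums of 433 to 575 against 439 to 1868 and *Krt19*, *Sox9* and *Cftr* not detected. Neutrophil markers had 0 of 12 called, with sums of 53257 to 62618 against 42355 to 113874.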

How the data were processed

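Liver RNA from 6 pups was labelled by the authors and run on Illumina MouseRef-8 arrays. The deposited table held bead intensities that the authors had neither background-corrected nor normalized, and detection p-values, which the deposited table gives per probe and array. Genome build and scanner settings are not given in the sources used here. The study names TCC, a tool for counts; a count model was not used on intensities. Background was removed by normexp from intensities and detection p-values (limma 3.58.1, nec, offset 16, R 4.3.3). Arrays were then quantile normalized and values taken to log2. Group differences were fitted with lmFit and eBayes without covariates, two-sided. The offset shrinks the differences of dim probes. For a probe undetected throughout a group, a bound was taken against the lowest detected signal of each array. Replicates were compared, and no 2 arrays were the same. The fit was tested on simulated data.

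The members and lists were chosen with earlier results of these data known. In each list up to 3 called genes per direction, those with the largest differences, are named with their values, beside all members, except for a gene that is not reported here. Alternatives covered background, scaling, filter, tests and each replicate left out.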

Additional observations from a re-analysis of the deposited data

How the results depend on the processing

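Both *Igf1* probes, *Igfals*, both *Ghr* probes and *Igfbp4* ILMN_2694955 kept their direction and their call in all 18 alternatives run for them. The count of member probes called higher was 0 at an adjusted p under 0.01 and 0 where detection on all 6 arrays was required, since *Igfbp1* was then not tested, and 0 to 1 when each replicate was left out. The count called lower was 4 with probes averaged per gene, which leaves fewer features, and 6 to 9 when each replicate was left out. Of the further probes, those called higher numbered 11 at an adjusted p under 0.01 and 12 with at least a 2-fold difference, and 12 to 25 when each replicate was left out. Those called lower numbered 11 with at least a 2-fold difference and 12 to 20 when each replicate was left out. Over all probes, calls fell from 1700 higher and 1854 lower to 856 and 965 without hSRY-OFF replicate 1. With each replicate left out, Igfbp2 ILMN_1236788 ranged from -0.025, a change of sign without hSRY-ON replicate 2, to 0.29. With array weights Igfbp3 ILMN_2727503 was called (-0.79, limma adjusted p = 0.0429). Samples with the same replicate number deviated together only weakly (r = 0.025, 0.095 and 0.052), and not every sample correlated best with its own number, so the numbers were not taken as pairs. With the replicate number as a block, 1 member probe was higher and 7 lower, and 20 and 17 of the further probes. Among the further genes named, *Jak2* lost its call without hSRY-OFF replicates 1 and 3 and hSRY-ON replicates 1 and 2 (each left out alone), *Cux2* without hSRY-OFF replicates 1 and 2 and hSRY-ON replicate 1, *Igfbp7* without hSRY-OFF replicate 1, *Atf4* without hSRY-OFF replicates 1 and 2, the *Asns* probe ILMN_3006123 without those and without hSRY-ON replicates 1 and 2, and *Ptpn11* on all 3 probes without hSRY-OFF replicate 1, on ILMN_3001598 also without hSRY-OFF replicates 2 and 3, and on ILMN_1245874 when any array other than hSRY-ON replicate 3 was left out. *H19* and *Ppargc1a* lost it when any array other than hSRY-ON replicate 3 was left out, and *Mest* when any other than hSRY-ON replicate 2 was. Signal near background limited *Stat5b* and *Igfbp1*, and signal near the top of the scale *Igf2*.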
